A study of Mus musculus and Rattus norvegicus with 21 samples.

Results

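The peaks of H3K4me3, trimethylated lysine 4 of histone H3, were compared with those of H3K27me3, trimethylated lysine 27 of histone H3, in thyroid glands of WT mice fed a normal diet (ND). The comparison took in every peak of both lists in the mouse mm10 assembly: 17044 H3K4me3 and 3050 H3K27me3 peaks, or 20094 of the 295051 peaks in the 13 peak lists of the series, from 2 of its 21 samples. Each of the 21000 protein-coding genes with a curated RefSeq transcript was then placed in 1 of 4 classes by whether a peak of each mark covered at least 1 base within 1 kb either side of any of its transcription start sites (TSSs): both marks, H3K4me3 only, H3K27me3 only or neither mark. The study behind the data asked how the transcription factors GLIS3, PAX8, NKX2.1 and FOXE1 act together on thyroid genes, by ChIP-Seq of mouse thyroid and of the rat thyrocyte line PCCl3, and mapped both histone marks in WT and Glis3KO thyroids on ND or a low iodine diet (LID). The libraries compared here were an H3K4me3 IP and an H3K27me3 IP, each made with an Abcam antibody from thyroid glands of C57BL/6 mice of WT genotype, labelled as 1 month old and fed the NIH-31 diet. The sources used here do not give how many glands were pooled for a library.

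Each mark was represented by 1 library with no replicate, so no test between conditions was possible. Shares are given with Wilson 95% intervals, which cover counting error only. The peak lists hold positions without heights or read counts, so the sequencing depth behind them is unknown, and an uncovered window says only that no peak was called there.

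H3K4me3 is deposited by COMPASS-family complexes around the start sites of active genes and of many CpG-rich promoters, whereas H3K27me3 is deposited by Polycomb repressive complex PRC2 over genes that are kept silent. Promoters that carry the pair together are called bivalent. They were first described in embryonic stem cells, where many belong to regulators of development. Follicular cells of the thyroid take up iodide, oxidise it with hydrogen peroxide and couple it to thyroglobulin to make thyroid hormone (TH), under the control of thyroid stimulating hormone (TSH).

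The 250 bases before the TSS are printed for 5 genes of the 4 classes, with CG dinucleotides in capitals, since the classes differed in CG content and single genes did not always follow their class. Ebf3, a helix-loop-helix transcription factor of developing neurons, and Duoxa2, the maturation factor of the dual oxidase DUOX2, carried both marks. Pax8, a transcription factor that maintains follicular cell identity, carried H3K4me3 only. Gad1, the enzyme that makes the neurotransmitter GABA, carried H3K27me3 only, and Duox1, the other peroxide-producing oxidase of the gland, carried neither. The sequences are from RefSeq in GRCm38.p6, the build that mm10 corresponds to, and are read 5′ to 3′ on the strand of the gene. They span chr7:137314446-137314695 on the minus strand for Ebf3, chr2:122298650-122298899 on the plus strand for Duoxa2, chr2:24475600-24475849 on the minus strand for Pax8, chr2:70561879-70562128 on the plus strand for Gad1 and chr2:122315422-122315671 on the plus strand for Duox1.
Ebf3: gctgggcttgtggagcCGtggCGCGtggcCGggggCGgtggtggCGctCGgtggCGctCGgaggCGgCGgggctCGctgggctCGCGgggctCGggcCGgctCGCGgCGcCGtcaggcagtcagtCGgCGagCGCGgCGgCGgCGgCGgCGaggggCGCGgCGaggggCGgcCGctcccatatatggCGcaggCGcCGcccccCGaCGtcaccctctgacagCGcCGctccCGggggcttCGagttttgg
Duoxa2: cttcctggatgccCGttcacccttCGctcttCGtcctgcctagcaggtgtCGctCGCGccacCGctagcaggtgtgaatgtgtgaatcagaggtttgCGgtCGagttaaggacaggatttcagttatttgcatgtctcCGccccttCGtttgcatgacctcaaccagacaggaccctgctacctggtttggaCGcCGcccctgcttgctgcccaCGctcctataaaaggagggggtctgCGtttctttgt
Pax8: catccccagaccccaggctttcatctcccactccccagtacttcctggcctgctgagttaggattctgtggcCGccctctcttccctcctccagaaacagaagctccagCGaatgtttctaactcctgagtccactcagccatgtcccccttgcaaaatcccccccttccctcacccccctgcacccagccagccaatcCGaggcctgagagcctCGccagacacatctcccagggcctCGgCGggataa
Gad1: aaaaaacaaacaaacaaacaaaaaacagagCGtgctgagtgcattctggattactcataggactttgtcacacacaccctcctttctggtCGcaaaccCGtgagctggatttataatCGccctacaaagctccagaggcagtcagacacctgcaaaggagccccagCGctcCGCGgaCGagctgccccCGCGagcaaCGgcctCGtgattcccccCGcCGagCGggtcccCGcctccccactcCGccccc
Duox1: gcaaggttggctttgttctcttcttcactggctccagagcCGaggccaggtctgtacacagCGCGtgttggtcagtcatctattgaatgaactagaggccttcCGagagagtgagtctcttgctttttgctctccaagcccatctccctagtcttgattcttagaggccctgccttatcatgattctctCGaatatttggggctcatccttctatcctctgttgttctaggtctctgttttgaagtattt
These windows held 43 CG in Ebf3, 15 in Duoxa2, 6 in Pax8, 17 in Gad1 and 5 in Duox1. Pax8 and Gad1 stand in the reverse order of their classes: in the 300 bases around the TSS Pax8 had 7 CG and Gad1 21, against medians of 22 with H3K4me3 only and 13 with H3K27me3 only. Among all 25994 start sites with a fully read sequence, 94.0% had at least 1 CG in these 250 bases and 51.0% had 10 or more.

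H3K4me3 covered more of the genome in more peaks, and H3K27me3 ran in fewer but wider tracts. H3K4me3 peaks covered 26.16 Mb, or 0.960% of the assembled chromosomes, and H3K27me3 peaks covered 7.47 Mb, or 0.274%. The median widths were close, 1411 bp for H3K4me3 and 1363 bp for H3K27me3, but the tails were not. The widest H3K4me3 peak measured 11004 bp and the widest H3K27me3 peak 49314 bp, and 3 H3K4me3 peaks against 91 H3K27me3 peaks spanned 10 kb or more. The lower end of each distribution was set by the peak caller, whose smallest region was 501 bp for H3K4me3 and 1001 bp for H3K27me3. At that smallest width were 12.8% of the H3K4me3 peaks and 40.3% of the H3K27me3 peaks. H3K4me3 was the more promoter-bound mark: 73.1% (72.4 to 73.7%) of its peaks lay within 1 kb of a protein-coding TSS, against 43.8% (42.1 to 45.6%) of the H3K27me3 peaks.

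Overlap of the marks was uneven. Of the H3K4me3 peaks, 1550 (9.09%, 8.67 to 9.54%) shared at least 1 base with an H3K27me3 peak, and of the H3K27me3 peaks, 1380 (45.2%, 43.5 to 47.0%) shared at least 1 base with an H3K4me3 peak. The bases under both marks formed 1551 stretches that added up to 1.70 Mb, which was 6.52% of the length of H3K4me3 and 22.8% of the length of H3K27me3. These are peaks of a whole gland, so both marks on the same nucleosomes and single marks in different cells or on different alleles cannot be told apart. In 977 of the 1551 overlapping peak pairs (63.0%, 60.6 to 65.4%) a narrower H3K4me3 peak lay wholly inside an H3K27me3 peak, with median widths of 1007 bp for H3K4me3 and 3607 bp for H3K27me3. The reverse was found in 60 pairs (3.87%), and in 514 pairs (33.1%) each peak reached past the other, with a median of 850.5 shared bases.

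Width separated the H3K27me3 peaks far more than the H3K4me3 peaks. Among H3K4me3 peaks the share with an overlap was 9.97% at 501 bp, 15% from 502 to 1000 bp, 8.29% from 1001 to 2000 bp, 6.40% from 2001 to 4000 bp and 6.69% above that. Among H3K27me3 peaks it was 19.5% at 1001 bp, 43.0% from 1002 to 2000 bp, 71.9% from 2001 to 4000 bp, 79.2% from 4001 to 8000 bp and 95.7% (90.9 to 98.0%) above that. A wider peak holds more bases that can be overlapped, and the part of this in the trend was not tested. H3K27me3 peaks with an overlap had a median width of 2308 bp, against 1001 bp for those without, and 140 H3K27me3 peaks held 2 or more H3K4me3 peaks. H3K4me3 peaks with and without an overlap had median widths of 1154 and 1426 bp.

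**Figure D1:**
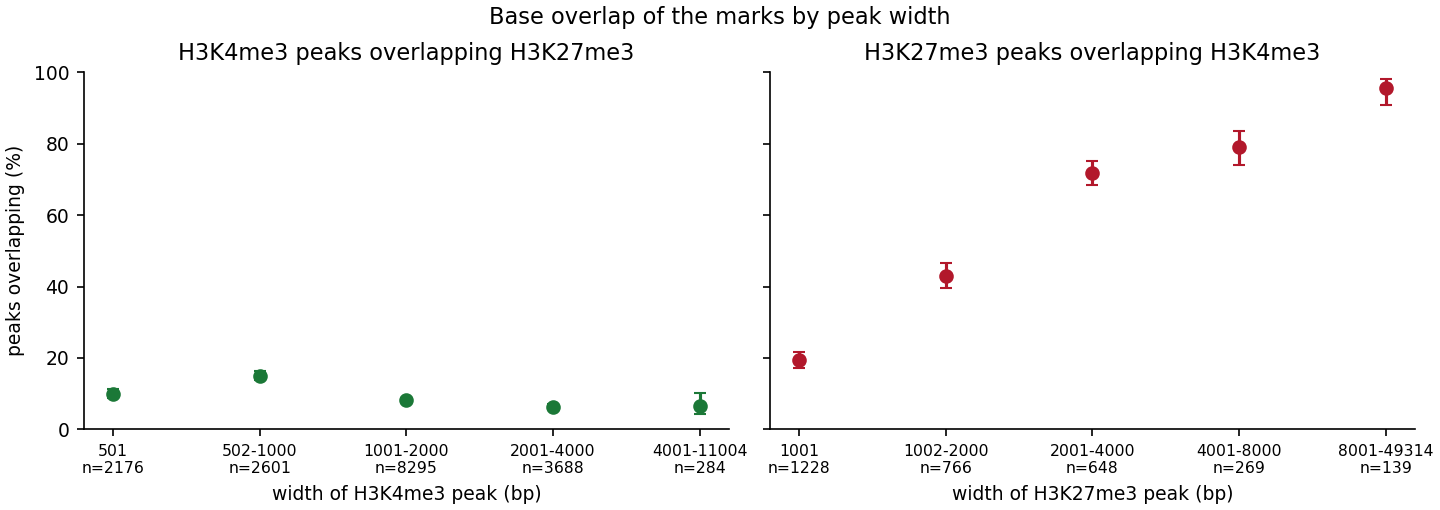
Share of peaks (%) that overlap the other mark by at least 1 base, by peak width in bp, for H3K4me3 peaks on the left and H3K27me3 peaks on the right; points are shares and bars are Wilson 95% intervals, with the number of peaks under each bin. The H3K4me3 shares lie between 6.40% and 15%, whereas the H3K27me3 shares climb with each bin, 19.5% in the narrowest and 95.7% in the widest.

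Peaks that did not overlap were mostly far from the other mark rather than next to it. Of the 15494 H3K4me3 peaks without an overlap, 0.755% lay under 1 kb from an H3K27me3 peak and 83.9% lay 50 kb or more away, with a median gap of 246 kb. Of the 1670 H3K27me3 peaks without an overlap, 5.69% lay under 1 kb from an H3K4me3 peak and 27.6% lay 50 kb or more away, with a median gap of 18.9 kb. The unequal number of peaks in the lists can set part of this difference, which was not tested. Away from protein-coding start sites the marks met at other rates than near them: 343 of 1713 H3K27me3 peaks (interval 18.2 to 22.0%) overlapped H3K4me3, against 1037 of 1337 peaks near a start site (77.6%, 75.2 to 79.7%). For H3K4me3 the shares were 11.3% (10.4 to 12.3%) away from start sites and 8.28% (7.81 to 8.77%) near them.

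At genes, H3K27me3 was found more often with H3K4me3 than without it. H3K4me3 marked 13060 of the 21000 genes (62.2%) and H3K27me3 marked 1351 (6.43%). Both marks were called at 1052 genes (5.01%, 4.72 to 5.31%), H3K4me3 only at 12008 (57.2%, 56.5 to 57.8%), H3K27me3 only at 299 (1.42%, 1.27 to 1.59%) and neither at 7641 (36.4%, 35.7 to 37.0%). Thus 77.9% of the genes with H3K27me3 also carried H3K4me3, whereas 8.06% of the genes with H3K4me3 also carried H3K27me3. The count of genes with both marks rested partly on narrow peaks: with peaks up to the 25th percentile of width left out of each list, which took away every H3K27me3 peak of 1001 bp, 683 genes had both and 405 had H3K27me3 only. H3K27me3 genes without H3K4me3 then made up 37.2%, against 22.1% with every peak used. The overlapping peaks then numbered 867 of 12777 for H3K4me3 (6.79%) and 823 of 1822 for H3K27me3 (45.2%).

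Within the windows the marks nearly always shared at least 1 base. Among the 1052 genes with both marks, 1002 (95.2%, 93.8 to 96.4%) had shared bases, which is 4.77% of all genes, 32 (3.04%) had the marks side by side in a window with no shared base, and 18 (1.71%) had them at different start sites of the gene. Zfp423, a zinc finger regulator of adipocyte and neural development, belonged to the last kind: its reported window had 2001 bp of H3K4me3 and 0 bp of H3K27me3. At the 1206 start sites with both marks, shared bases had a median of 943 bp, against 1192 bp of H3K4me3 and 1507 bp of H3K27me3. The medians of the marks together exceed the window of 2001 bp, and marks of such lengths must share bases wherever they lie. The part of this in the share of genes with shared bases was not tested. The TSS base itself lay under H3K4me3 and H3K27me3 in 64.5% of these sites. It lay under H3K4me3 alone in 18.8%, under H3K27me3 alone in 12.2% and under neither in 4.48%.

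The number of bases that each mark covered around the TSS differed between the classes. At start sites with both marks, H3K4me3 covered a median of 1192 bp of the 2001 bp window, against 1457 bp at start sites with H3K4me3 only, and the TSS base lay under H3K4me3 in 83.3% (81.1 to 85.3%) against 94.1% (93.7 to 94.5%). H3K27me3 covered a median of 1507 bp at start sites with both marks and 1336 bp at start sites with H3K27me3 only, and its share on the TSS base was 76.7% (74.2 to 79.0%) and 75% (70.4 to 79.1%). At start sites with both marks each mark lay more downstream than upstream of the TSS. H3K4me3 averaged 731 bp downstream and 459 bp upstream, a ratio of 1.59, and H3K27me3 averaged 806 and 599 bp, a ratio of 1.35. This lean was not particular to the class: the ratio was 1.46 with H3K4me3 only and 1.32 with H3K27me3 only. Peak widths followed the order of the covered bases. H3K4me3 peaks had a median width of 1322 bp at start sites with both marks, 1647 bp at those with H3K4me3 only and 668 bp where no TSS was within 1 kb. H3K27me3 peaks had medians of 2308 bp at start sites with both marks, 1953 bp at those with H3K27me3 only and 1001 bp where no TSS was near.

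**Figure D2:**
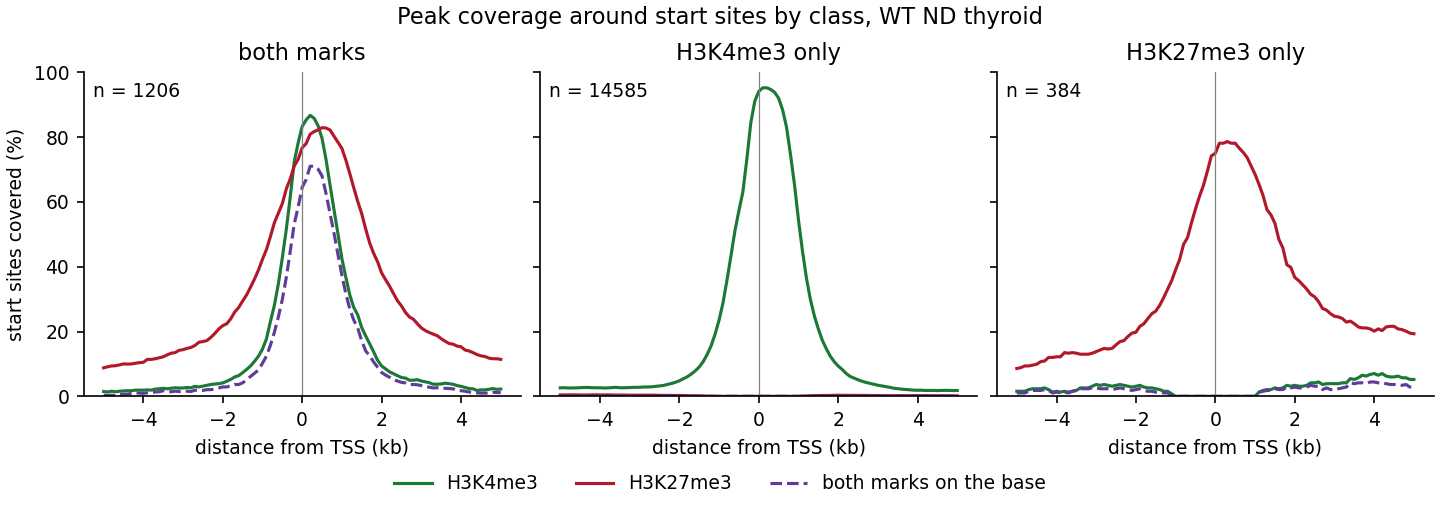
Share of start sites (%) covered by an H3K4me3 peak (green), an H3K27me3 peak (red) or both on the same base (dashed) against distance from the TSS in kb, with downstream to the right, for 1206 start sites with both marks, 14585 with H3K4me3 only and 384 with H3K27me3 only. H3K27me3 spreads further to either side than H3K4me3 at start sites with both marks, and both curves peak just downstream of the TSS; the absence of a mark within 1 kb in the other panels is set by the class.

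Promoters of the classes differed in sequence. In the window from 250 bases before to 50 bases after the TSS, read from the GRCm38.p6 genome at the start site used for each gene, the ratio of observed to expected CpG had a median of 0.722 (quartiles 0.559 and 0.876) in genes with both marks, 0.794 (0.635 and 0.928) with H3K4me3 only, 0.535 (0.366 and 0.731) with H3K27me3 only and 0.188 (0.0956 and 0.323) with neither. A ratio of 0.6 or more was found in 70.7%, 78.8%, 42.8% and 6.27% of these classes and in 51.5% of all genes. The GC content was highest in genes with both marks, with a median of 65.3%, against 62.3% with H3K4me3 only, 59.7% with H3K27me3 only and 47.0% with neither. The letters TATAAA, sought on both strands, occurred in 9.03% of the windows with both marks, 5.75% with H3K4me3 only, 30 of 299 with H3K27me3 only and 23.9% with neither, against 12.6% of all genes.

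The thyroid label was checked against marker genes. The 5 thyroid transcription factors examined all carried H3K4me3 only: Nkx2-1, Pax8, Foxe1 and Hhex had H3K4me3 over the whole 2001 bp window, and Glis3 over 1337 bp. All 12 epithelial markers carried H3K4me3 only, among them the keratins Krt7 (1852 bp), Krt8 (956 bp), Krt18 (1020 bp) and Krt19 (1312 bp) and the cadherin Cdh1 (1191 bp). All 13 immune markers carried neither mark, and Ptprc, the surface phosphatase of leukocytes, was at 0 bp for both. Markers of other cells that a gland can hold were covered in part: H3K4me3 was called at 8 of 12 endothelial markers, including the receptors Flt1 (1866 bp) and Kdr (1732 bp) and the junction cadherin Cdh5 (119 bp), at 5 of 12 fibroblast markers, including the collagen gene Col1a1 (642 bp), and at 4 of 8 adipocyte markers, including the lipid carrier gene Fabp4 (635 bp). All genes had H3K4me3 in 62.2%. By class, 57.2% of all genes carried H3K4me3 only, 5.01% both marks, 1.42% H3K27me3 only and 36.4% neither mark. Of these markers, 2 endothelial, 2 fibroblast and 1 adipocyte gene carried both marks, such as Sox17, an endothelial and endoderm factor, with 1296 bp of H3K4me3 and 1918 bp of H3K27me3, and the endothelial factor gene Erg had H3K27me3 only (1325 bp). The part of these cells in the peak lists was not tested. Calca, the calcitonin gene of the C cells of the thyroid, had 752 bp of H3K4me3 and 0 bp of H3K27me3, while Chga (1001 bp), Sst (954 bp) and Calcb (658 bp), which endocrine cells express, had H3K27me3 only.

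Of the 11 genes of TH synthesis examined, 9 carried H3K4me3, and H3K27me3 reached the Duox2 and Duoxa2 promoters, whose shared peak makes them 1 observation. H3K4me3 only was found at 7 (63.6%, near the 57.2% of all genes, with 6.43% of all genes carrying H3K27me3), among them the TSH receptor Tshr (1393 bp), the iodide importer Slc5a5 (1230 bp), the anion exchanger Slc26a4 (969 bp), the iodotyrosine deiodinase Iyd (1171 bp) and the oxidase maturation factor Duoxa1 (501 bp). Duox2, which makes the hydrogen peroxide used in TH synthesis, and Duoxa2 are transcribed in opposite directions from neighbouring start sites on chromosome 2. Duox2 had H3K4me3 over 2001 bp and H3K27me3 over 1001 bp of its window, and Duoxa2 had H3K4me3 over 2001 bp and H3K27me3 over 676 bp, all of it shared. This H3K27me3 was 1 peak of the smallest width, 1001 bp, from 348 bp upstream to 652 bp downstream of the Duox2 TSS, inside an H3K4me3 peak of 4946 bp. It was seen in the H3K27me3 list of WT ND and not in those of WT LID or Glis3KO ND, where H3K27me3 covered 0 bp of both windows, whereas in Glis3KO LID it covered 2001 bp at Duox2 and 1697 bp at Duoxa2. Tg, which encodes thyroglobulin, and Duox1 carried neither mark. The nearest H3K4me3 peak to the Tg start site was 501 bp wide and lay 4675 bp downstream, and no H3K4me3 peak reached the window in WT glands on either diet (0 bp), against 1056 bp for Glis3KO on ND and 1091 bp for Glis3KO on LID. Thyroglobulin, the protein on which TH is built, is a main product of follicular cells. Of 8 TSH-induced genes, Ano1, a chloride channel, had H3K4me3 over 841 bp and H3K27me3 over 1137 bp, and Cdh13, a cadherin anchored by a lipid, had 897 bp of H3K4me3 and 885 bp of H3K27me3. In WT LID, H3K27me3 covered 0 bp of the Ano1 and Cdh13 windows. It covered 1845 bp at Ano1 and 1567 bp at Cdh13 in Glis3KO ND, and 2001 bp at each in Glis3KO LID. Cdh16 (1002 bp), Adm2 (929 bp), Dio1 (1027 bp) and Kcnq1 (1144 bp) had H3K4me3 only. Sod3 and Pde4d carried neither mark. Of these 8 genes, 4 thus had H3K4me3 only, 2 both marks and 2 neither. Of all genes, 57.2% had H3K4me3 only, 5.01% both marks and 36.4% neither.

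**Figure D3:**
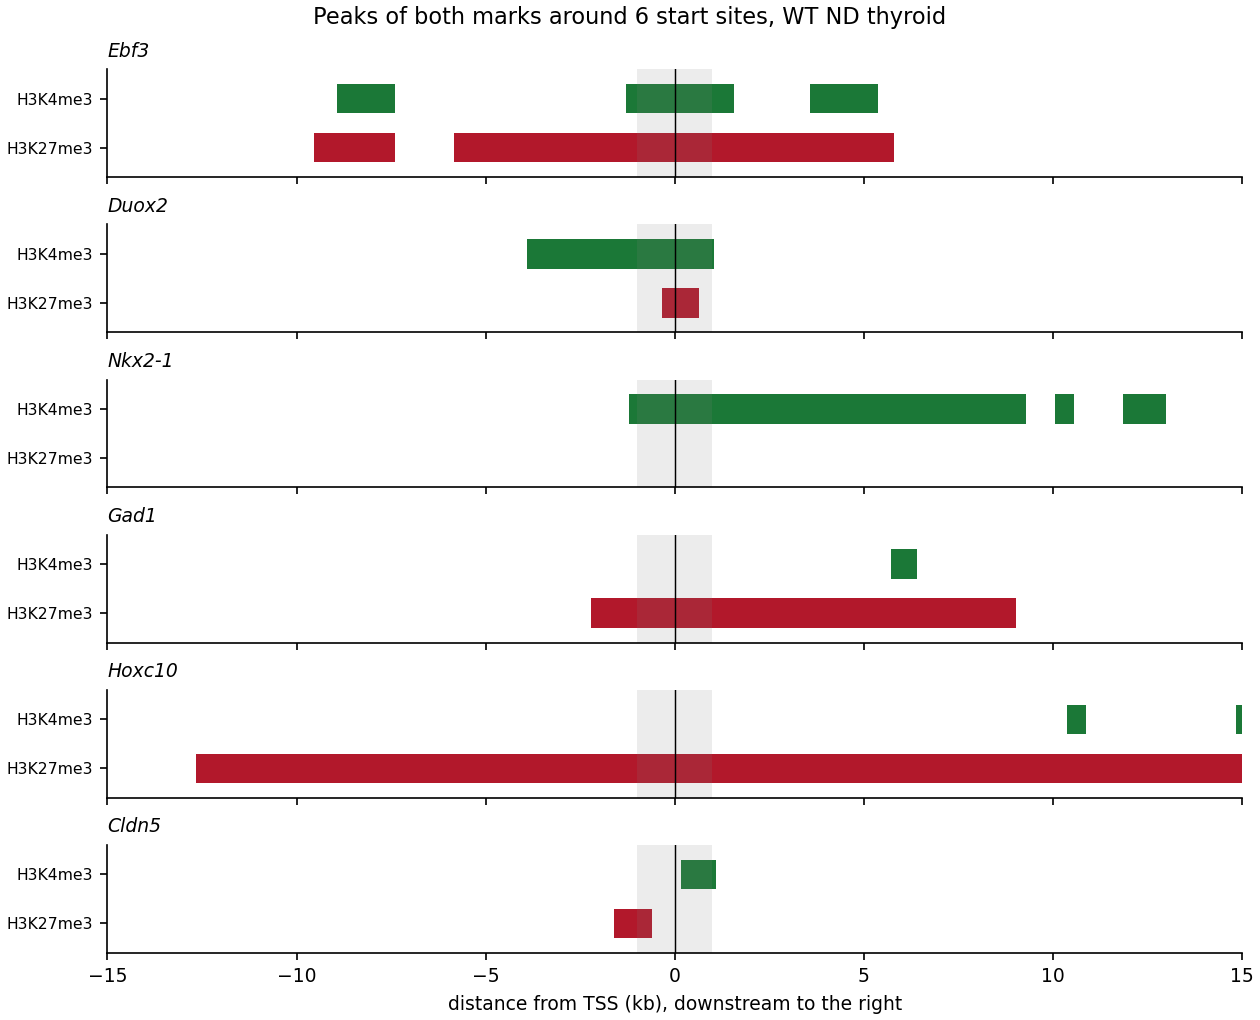
Peaks of H3K4me3 (green, upper row) and H3K27me3 (red, lower row) within 15 kb of the TSS of 6 genes, against distance from the TSS in kb with downstream to the right; the grey band is the window of 1 kb either side. Ebf3 and Duox2 show shared bases, Nkx2-1 H3K4me3 only, Gad1 and Hoxc10 H3K27me3 only within the band, and Cldn5 the marks side by side; the H3K27me3 peak at Hoxc10 runs past the right edge of the axis.

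Many families of developmental regulators held larger shares of genes with both marks than the 5.01% of all genes. Among homeobox families, both marks were called at 5 of 6 Irx genes, 7 of 10 Dlx, Emx and Otx genes, 8 of 12 LIM homeobox genes, 4 of 6 sine oculis homeobox genes and 4 of 7 Msx, Barx and Barhl genes. Among the LIM homeobox genes, which pattern limbs and neurons, Lhx1 and Lmx1b had each mark over the whole window, Lhx2 had 1641 bp of H3K4me3 and 2001 bp of H3K27me3, and Lhx3 had 0 bp of H3K4me3 and 2001 bp of H3K27me3. Dlx2, a forebrain and jaw regulator, had 1395 bp of H3K4me3 inside 2001 bp of H3K27me3. Otx1, a forebrain regulator, had 2001 bp of each. The 7 Meis and Pbx genes, whose products are the DNA-binding partners of HOX proteins, all carried H3K4me3 only.

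The Hox genes, which set position along the body axis, were spread over the classes, with counts that differed between clusters. Of 39 genes, 15 carried both marks, 6 H3K4me3 only, 16 H3K27me3 only and 2 neither, and H3K27me3 only was found at 41.0% against 1.42% of all genes. In the Hoxc cluster on chromosome 15, 7 of 9 genes carried H3K27me3 only, and Hoxc9, with 501 bp of H3K4me3, and Hoxc4, with 1301 bp, carried both. Members of a cluster share peaks: the widest H3K27me3 peak of the list, chr15:102954142-103003455, held the start sites of 4 genes and had H3K4me3 over 6.00% of its bases. In the Hoxa cluster on chromosome 6, 5 of 11 genes carried both marks, 2 H3K4me3 only and 4 H3K27me3 only. In the Hoxb cluster on chromosome 11 the counts were 3, 3 and 3 of 10, and in the Hoxd cluster on chromosome 2 they were 5, 1 and 2 of 9. The H3K4me3-only members were Hoxa2 (1500 bp), Hoxa4 (1681 bp), Hoxb2 (1310 bp), Hoxb3 (568 bp), Hoxb4 (1135 bp) and Hoxd3 (1043 bp). Hoxb5 stood at the edge of its class, with 20 bp of H3K27me3 and 0 bp of H3K4me3 in the window.

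Relatives of the thyroid factors were spread over the classes. Of all genes, 5.01% carried both marks, 57.2% H3K4me3 only and 1.42% H3K27me3 only. Of 14 Nkx genes, Nkx2-1 (2001 bp) and Nkx2-9 (1174 bp) carried H3K4me3 only, 5 carried both marks and 5 carried H3K27me3 only, such as the heart regulator Nkx2-5 with 0 bp of H3K4me3 and 2001 bp of H3K27me3. Of 9 Pax genes, Pax8 (2001 bp), Pax9 (1427 bp) and Pax3 (994 bp) carried H3K4me3 only. Pax2, a kidney regulator, had 1722 bp of H3K4me3 and 2001 bp of H3K27me3, Pax6, an eye regulator, had 933 and 2001 bp, Pax1 had 631 and 2001 bp and Pax7 had 501 and 2001 bp, in the same order of marks, while Pax5, a B cell regulator, had 0 bp of H3K4me3 and 2001 bp of H3K27me3. Of 44 forkhead genes, 13 carried both marks, 20 H3K4me3 only, Foxe1 (2001 bp) among them, and 2 H3K27me3 only. Foxa1, a regulator of endoderm, had 1772 bp of H3K4me3 and 2001 bp of H3K27me3. Of 11 Gli, Glis and Zic genes, Glis1 (1379 bp), Glis2 (2001 bp), Glis3 (1337 bp) and Gli2 (2001 bp) carried H3K4me3 only, whereas Gli3 and Zic2 had both marks over the whole window.

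**Figure D4:**
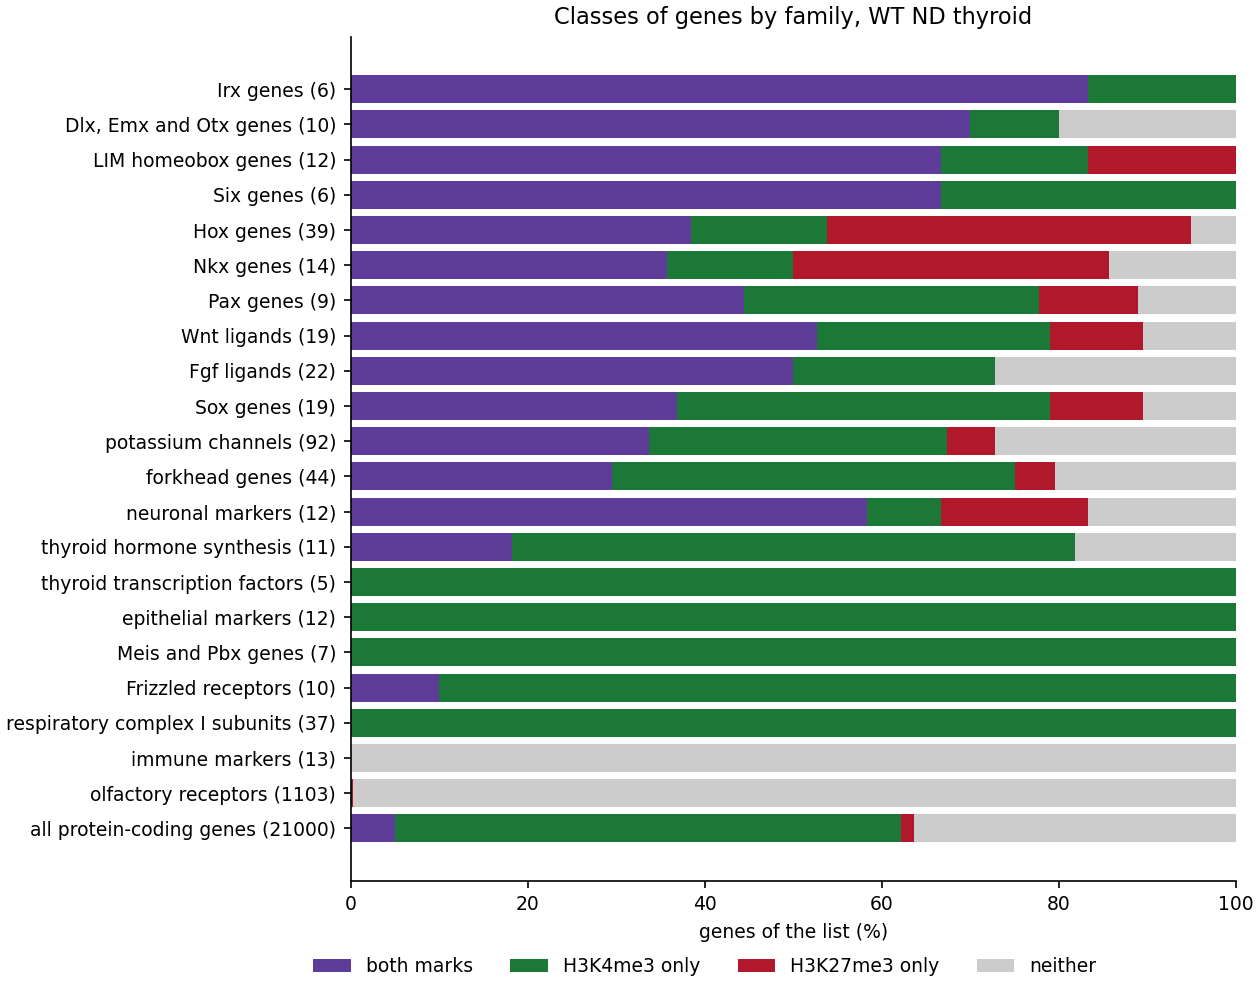
Share (%) of each gene list in the 4 classes, with the number of genes in brackets: both marks (purple), H3K4me3 only (green), H3K27me3 only (red) and neither (grey), with all protein-coding genes in the last row. Homeobox families, Wnt and Fgf ligands and potassium channels hold more genes with both marks than the 5.01% of all genes, Hox and Nkx genes hold the largest shares of H3K27me3 only among the lists drawn, and thyroid transcription factors, epithelial markers and complex I subunits hold H3K4me3 only.

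Other transcription factor families varied in the share with both marks, which was 5.01% over all genes. Both marks were called at 7 of 19 Sox, 5 of 15 POU, 3 of 6 Gata and 3 of 5 Tfap2 genes. They were called at 5 of 26 Klf and Sp genes, 3 of 17 T-box genes and 4 of 42 nuclear receptors (9.52%). Sox3, a neural progenitor factor on the X chromosome, had each mark over 2001 bp, and Sox9 (2001 bp), a cartilage and progenitor factor, had H3K4me3 only. Gata4, Gata5 and Gata6, endoderm and heart regulators, carried both marks, and Gata2 and Gata3 carried H3K4me3 over 2001 bp without H3K27me3. Nr5a1, which directs adrenal and gonadal steroid synthesis, had 1737 bp of H3K4me3 and 1898 bp of H3K27me3, whereas the TH receptors Thra and Thrb each had 2001 bp of H3K4me3 and 0 bp of H3K27me3. Of the 12 neuronal markers 7 carried both marks, among them Neurog2 with 2001 bp of each, and 2 carried H3K27me3 only, Gad1 (2001 bp) and Slc17a6 (1104 bp). In skeletal muscle markers, Myod1, the master regulator of muscle, and Acta1, a muscle actin, had 0 bp of H3K4me3 and 2001 bp of H3K27me3. Of the 12 muscle markers 9 carried neither mark, against 36.4% of all genes.

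Genes of signalling pathways were read against the shares of all genes, 5.01% with both marks, 57.2% with H3K4me3 only and 1.42% with H3K27me3 only. Wnt ligands carried both marks at 10 of 19 genes, H3K4me3 only at 5 and H3K27me3 only at 2. Wnt11 had 1563 bp of H3K4me3 and 2001 bp of H3K27me3, Wnt7b had 1595 and 2001 bp, and Wnt3 had 0 and 2001 bp. Of the Frizzled receptors that bind them, 9 of 10 carried H3K4me3 only, and Fzd10, with 1953 bp of H3K4me3 and 2001 bp of H3K27me3, carried both. Fgf ligands carried both marks at 11 of 22 genes and H3K4me3 only at 5. Fgf12 had 2001 bp of each mark, Fgf8, a limb and brain organiser signal, had 1366 bp of H3K4me3 and 2001 bp of H3K27me3, and Fgf14 lay at the edge of the class with 2 bp and 105 bp. The Hedgehog ligands Shh (1573 bp) and Ihh (1875 bp) carried H3K27me3 only, and the third ligand Dhh carried neither mark. The receptor Ptch1 had 1580 bp of H3K4me3 and 974 bp of H3K27me3, and the transducers Smo (1371 bp) and Sufu (1363 bp) carried H3K4me3 only. In the Notch pathway 14 of 18 genes carried H3K4me3 only, and Hes5 and Lfng carried both marks. Among secreted antagonists of BMP and Wnt signals, Nog, Dkk1 and Sfrp5 were among those with both marks and 10 of 16 carried H3K4me3 only, a share near that of all genes. Ephrins and their receptors carried H3K4me3 only at 17 of 22 genes, with both marks over the whole window at Efna3.

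Genes of excitable cells carried both marks more often than the 5.01% of all genes. Both marks were called at 31 of 92 potassium channel genes (33.7%), 12 of 40 voltage-gated sodium and calcium channel genes and 12 of 45 glutamate and GABA receptor genes. The potassium channel gene Kcnc4 had 1816 bp of H3K4me3 and 2001 bp of H3K27me3, Kcnc1 had 1439 and 2001 bp, and Kcnq1 (1144 bp), which works in thyrocytes, had H3K4me3 only. The calcium channel gene Cacna1h had 1975 bp of H3K4me3 and 2001 bp of H3K27me3. Among 364 solute carriers, 33 (9.07%) carried both marks, including the amino acid carrier Slc43a1 with 1860 bp of H3K4me3 and 2001 bp of H3K27me3. H3K27me3 only was called at 6 (1.65%, near the 1.42% of all genes), among them the glycine transporter Slc6a5 (2001 bp).

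Several families with general functions had no H3K27me3 at any member, whereas 6.43% of all genes carried it and 57.2% carried H3K4me3 only. Neither both marks nor H3K27me3 only was called at any of the 89 cytosolic ribosomal protein, 78 mitochondrial ribosomal protein, 37 complex I, 39 proteasome or 53 initiation factor genes, and H3K4me3 only was called at 82, 76, 37, 37 and 48 of them. Other general lists had a few exceptions, with both marks at 2 of 63 replication-dependent histone genes and 1 of 59 Rab GTPase genes. These shares, 3.17% and 1.69%, were below the 5.01% of all genes. Families expressed in few tissues outside the gland lacked both marks instead of carrying H3K27me3. Over all genes, 36.4% carried neither mark. Neither mark was called at 1100 of 1103 olfactory receptor genes, 350 of 350 vomeronasal receptor genes, 70 of 70 defensin genes, 52 of 53 keratin-associated protein genes and 43 of 49 keratin genes. The olfactory exceptions were Olfr94, with 628 bp of H3K4me3 and 1283 bp of H3K27me3, and Olfr12 (1456 bp) and Olfr222 (717 bp) with H3K27me3 only. Only uniquely mapped reads were kept when the lists were made, and its part in families of near-identical copies was not tested.

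Most subunit genes of the complexes that write the marks, and of PRC1, another Polycomb complex, carried H3K4me3 only. Of all genes, 57.2% carried H3K4me3 only and 5.01% carried both marks. Of the 15 subunits of H3K4 methyltransferase complexes, 14 carried H3K4me3 only. Of 12 PRC2 subunits, 11 carried H3K4me3 only, including the methyltransferases Ezh1 (1294 bp) and Ezh2 (2001 bp), and Epop, an accessory subunit, had 1663 bp of H3K4me3 and 2001 bp of H3K27me3. Of 20 PRC1 subunits, 17 carried H3K4me3 only, and those with both marks included Cbx8 (1766 bp of H3K4me3 and 850 bp of H3K27me3) and Bcor (2001 and 468 bp). Of 7 cell cycle inhibitors, Cdkn2a, a known Polycomb target, had 1556 bp of H3K4me3 and 1001 bp of H3K27me3, and the other 6 carried H3K4me3 only.

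Transcription factor genes lay under the widest peaks of either mark. Of all H3K4me3 peaks 9.09% overlapped an H3K27me3 peak, and of those wider than 4000 bp 6.69% did. The 10 widest H3K4me3 peaks, from 7258 to 11004 bp, had no base under H3K27me3, like most H3K4me3 peaks. The second of them, chr12:56527607-56538123, measured 10517 bp and covered the Nkx2-1 start site, and others covered the start sites of Tnrc18 (11004 bp), the limb and heart regulator Tbx3 (10206 bp), Zfp36l1 (8081 bp), an mRNA decay factor, and Irs2 (7598 bp), an insulin receptor substrate. The 10 widest H3K27me3 peaks, from 22591 to 49314 bp, lay over the Hoxc and Hoxa clusters and over Uncx, Pax6, Dlx1, Pax7, Hmx1, Lmx1b, Vax2 and Onecut1, all homeobox or paired box transcription factor genes, and H3K4me3 covered between 1.89% (Pax7) and 20.9% (Lmx1b) of their bases. The longest stretch under both marks, 5278 bp, lay at chr6:84583278-84588555, with the nearest start site that of Cyp26b1, a retinoic acid hydroxylase, 5255 bp away, and the next, 4455 bp, covered the start site of Efna3.

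By the number of shared bases in the window, 33 start sites (2.74% of the 1206 with both marks) were covered by both marks from end to end. In alphabetical order these began with Ache, Bcl11a, Ebf2, Ebf3, Efna3, Eomes, Fezf2, Fgf12, Foxb2 and Gdf6. At Ache, the acetylcholinesterase gene, the H3K4me3 peak was 2468 bp and the H3K27me3 peak 2808 bp wide. At Bcl11a, a regulator of globin switching and neurons, H3K4me3 was the wider, with 6573 against 4415 bp. At Ebf3 the H3K4me3 peak measured 2851 bp within 11652 bp of H3K27me3, and at Fezf2, a forebrain regulator, 2294 bp within 14110 bp. At Eomes, a T-box factor of mesoderm and lymphocytes, the widths were 2682 bp for H3K4me3 and 6027 bp for H3K27me3.

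Among genes with H3K27me3 over the whole window and no H3K4me3, those under the widest separate peaks were Hoxc10 (49314 bp), Hoxa3 (30243 bp), Hoxd10 (22354 bp), Hoxb8 (21157 bp), Hoxc12 (19470 bp), Nr2e1 (17921 bp), Foxl1 (17855 bp), Asic4 (15721 bp), Evx1 (14759 bp) and Prdm13 (14147 bp). All but Asic4, an acid-sensing channel gene, encode transcription factors. The absence of H3K4me3 held for the window and not for the whole peak: the H3K27me3 peak over Gad1 ran from 2210 bp upstream to 9026 bp downstream of its TSS, and an H3K4me3 peak of 696 bp lay within it from 5720 to 6415 bp downstream.

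Of the 32 genes with the marks side by side, 18 (56.2%) had an H3K27me3 peak of the smallest width, against 160 of the 1002 genes with shared bases, and the median widths were 1001 and 2350 bp. The 10 with the largest gaps included Tnfrsf19 (988 bp), Cldn5 (785 bp), Grm7 (580 bp), Ntm (555 bp), Crabp1 (546 bp), Etv4 (541 bp), Sec14l2 (461 bp), Ildr2 (438 bp) and Abcc8 (377 bp), and in 7 of these 10 the H3K27me3 peak had the smallest width, 1001 bp. At Cldn5, a claudin of endothelial tight junctions, H3K4me3 lay from 173 to 1085 bp downstream and H3K27me3 from 1613 to 613 bp upstream of the TSS. H3K27me3 covered 388 bp of the Cldn5 window in WT ND, against 1111 bp in WT LID and the whole 2001 bp in either Glis3KO library. Of the 32 genes, 12 had shared bases in WT LID, 15 in Glis3KO ND and 24 in Glis3KO LID. Of the 1002 genes with shared bases in WT ND, 632 (63.1%), 725 (72.4%) and 790 (78.8%) had them there, in the same order. Over all 21000 genes, both marks were called at 1094 in WT LID, 1376 in Glis3KO ND and 2243 in Glis3KO LID, against 1052 in WT ND. Glis3KO LID had 18040 H3K27me3 peaks against 3050 in WT ND, and the part of this in its count was not tested.

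The classes were then followed into the other library pairs of the series, which had no part in setting them and differ from WT ND in diet, genotype or both. WT ND had 17044 H3K4me3 and 3050 H3K27me3 peaks, against 16824 and 2631 in WT LID, 16590 and 4116 in Glis3KO ND and 15692 and 18040 in Glis3KO LID, which stood apart from the others in H3K27me3. Genes with both marks in WT ND had both marks in 63.3% (60.4 to 66.2%) of cases in WT LID, 73.5% (70.7 to 76.1%) in Glis3KO ND and 79.2% (76.6 to 81.5%) in Glis3KO LID. In WT LID, 270 of these 1052 genes had H3K4me3 only and 74 had H3K27me3 only. Of the genes with H3K27me3 only, 34.1% (29.0 to 39.7%) were in the same class in WT LID, 48.8% in Glis3KO ND and 65.6% in Glis3KO LID, and in WT LID 87 of the 299 had both marks and 87 had neither. All 3 other pairs gave the same class for 499 genes with both marks (47.4%), 9997 with H3K4me3 only (83.3%), 61 with H3K27me3 only (20.4%) and 6256 with neither (81.9%). Eomes and Neurog2 had both marks in every pair, with 2001 bp of H3K27me3 throughout and between 1505 and 2001 bp of H3K4me3, and Hoxc10 had 0 bp of H3K4me3 and 2001 bp of H3K27me3 in every pair. Ebf3 had 2001 bp of H3K4me3 in all 4, and its H3K27me3 covered 2001 bp in WT ND and 0 bp in WT LID. With 1 library for each mark and group, differences of diet or genotype and differences between libraries cannot be told apart.

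**Figure D5:**
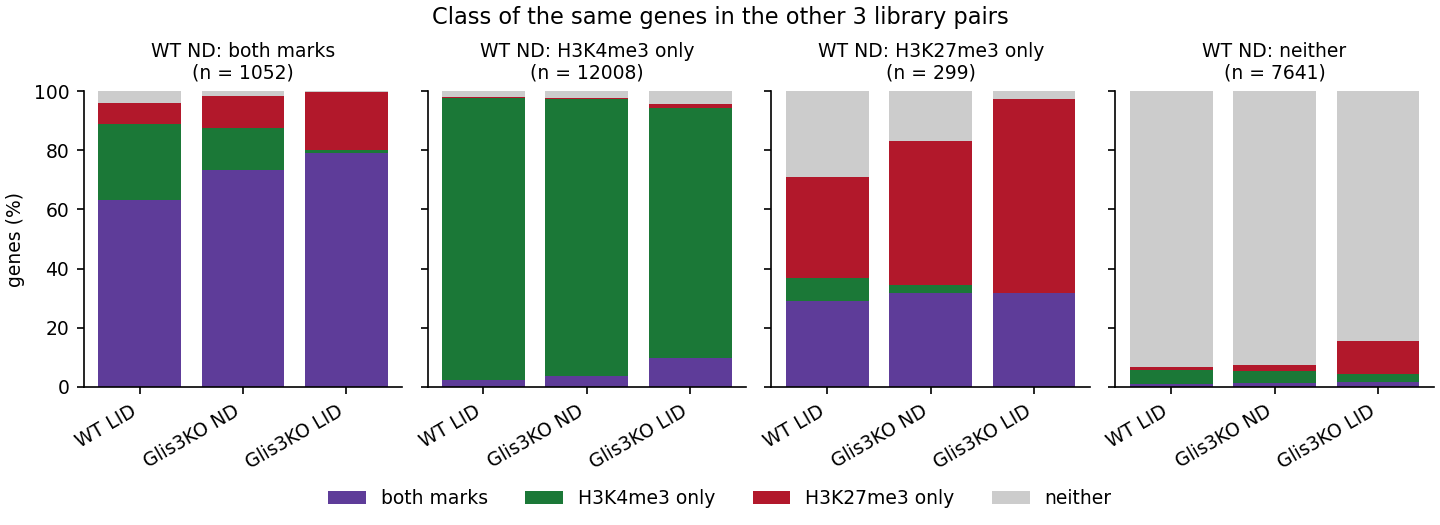
Class (%) in the WT LID, Glis3KO ND and Glis3KO LID library pairs of the genes of each WT ND class: both marks (purple), H3K4me3 only (green), H3K27me3 only (red) and neither (grey). Most genes with H3K4me3 only or neither mark keep their class, 63.3% to 79.2% of genes with both marks do, and genes with H3K27me3 only are spread over all classes in WT LID and Glis3KO ND.

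Binding of thyroid factors was then set against the classes. The NKX2.1 and PAX8 peaks came from other libraries, of thyroids on LID that the sample labels give as WT, whereas the study's methods describe tissue ChIP-Seq of these factors in older Glis3-EGFP knock-in mice. Diet, and by the methods also age and genotype, thus differed from WT ND. An NKX2.1 peak lay within 1 kb of a TSS at 7.51% (6.07 to 9.26%) of genes with both marks, against 32.7% (31.9 to 33.5%) with H3K4me3 only, 2.34% (1.14 to 4.75%) with H3K27me3 only and 5.35% (4.87 to 5.88%) with neither. PAX8 peaks were found at 16.6% (14.5 to 19.0%) of genes with both marks, 45.9% (45.0 to 46.8%) with H3K4me3 only, 5.69% (3.58 to 8.92%) with H3K27me3 only and 5.68% (5.18 to 6.22%) with neither. Over all genes the shares were 21.1% for NKX2.1 and 29.2% for PAX8. Both factors were found at 48 genes with both marks (4.56%) and at 2261 genes with H3K4me3 only (18.8%).

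Genes with both marks were spread over the chromosomes. They made up between 3.43% of genes on chromosome 16 and 7.38% on chromosome 12 among the autosomes, 2.44% (22 of 902) on the X chromosome and 0 of 77 on the Y chromosome. H3K4me3 was called at 43.3% of genes on the X chromosome and at no gene on the Y chromosome.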

How the data were processed

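H3K4me3 and H3K27me3 ChIP-Seq of WT thyroid glands on ND was deposited as 1 peak list per library, in which the authors give the chromosome, start, end and name of each peak and no count, signal or other value. Per the paper's methods and the submitters' processing notes, adapters were trimmed with cutadapt 1.12, single-end reads were mapped to mm10 with Bowtie 1.2, keeping uniquely mapped reads, duplicates were removed with Picard 1.110, and HOMER 4.10.3 called regions, with a size of 500 and a joining distance of 1000 bp for H3K4me3 and of 1000 and 2500 bp for H3K27me3. The sources used here do not give whether an input library served as background for the histone calls, and the input libraries were not used here. The unified lists over all libraries were not used either.

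Start sites of curated transcripts (25999 distinct sites of 21000 genes) came from the RefSeq annotation of GRCm38.p6. Intervals were intersected in Python 3.11.15 with numpy 2.4.6 and pandas 2.3.3, and the functions were tested on simulated data. For each gene the window with the most shared and then the most covered bases was reported. Shares carry Wilson intervals, and alternatives of window, overlap and peak width were computed. The classes and the 73 gene lists were chosen with earlier results of these data known. Ribosomal S6 kinases and receptor-associated genes caught by a name pattern were taken out of their lists. Members of lists of 20 or fewer could be named, of longer lists those with the most shared or covered bases, and the leading 10 genes of each arrangement and of the widest peaks. The 6 Hox genes with H3K4me3 only, Hoxb5, Fgf14, Thra, Thrb and Zfp423 were named after their values were seen. Promoter sequences in the RefSeq table matched the reported start site of 16506 genes (78.6%), so base composition was read from the genome at all start sites, of which 5 had unread bases and were left out. A few members of the lists are not reported here.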

Additional observations from a re-analysis of the deposited data

How the results depend on the processing

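Of 42 values recomputed under alternatives, 38 stayed within 1.5 times of the values given. All 4 exceptions came from leaving out peaks up to the 25th percentile of width, which kept 12777 H3K4me3 peaks and 1822 H3K27me3 peaks (59.7%, since every peak of 1001 bp was taken out). Genes with both marks then numbered 683 (3.25%, against 1052), of which 656 (96.0%) had shared bases (against 1002), and the peaks with an overlap numbered 867 for H3K4me3 (6.79%, against 1550) and 823 for H3K27me3 (45.2%, against 1380). Genes with H3K27me3 only numbered 405, or 37.2% of those with H3K27me3 (against 22.1%). The length under both marks was 1.27 Mb. With windows of 500 bp or 2 kb, of 1 kb upstream only, with 200 covered bases required, with predicted transcripts or with start sites in place of genes, genes or sites with both marks numbered between 777 and 1206, and the share of them with shared bases lay between 90.9% and 97.2%. No paired analysis was possible because each mark has 1 library and no test was made, and for the same reason no replicate could be left out. Depth, peak height and replicate spread are unknown from these lists, so a peak just under the caller's threshold in 1 library and a true absence look alike.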
